A study of Homo sapiens with 6 samples.

Results

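Fatty acid desaturases and the elongases of polyunsaturated fatty acids (PUFAs) were examined in 22Rv1, a castration-resistant human prostate cancer cell line, grown with and without induction of ABHD5. The set held 7 genes, FADS1, FADS2, FADS3, SCD, SCD5, ELOVL2 and ELOVL5, of 27470 genes in the deposited count table. The set was chosen by the measured fall of FADS1 with induction, and the other members were taken for their enzyme function. The values of FADS1 are therefore given as a description with no test. Of the 7 members, 6 passed the filter on low counts and were among the 12233 genes tested, and SCD5 did not pass.

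The cells carried a doxycycline (Dox)-inducible ABHD5 transgene (pInducer20-ABHD5), introduced by lentivirus and selected with G418, and whether they are 1 clone or a pool is not given in the sources used here. ABHD5 is the coactivator of the triacylglycerol lipase ATGL on lipid droplets. Cells of this same line were grown for 48 h without Dox (control replicates 1 to 3) or with Dox (OE replicates 1 to 3), and the 3′ ends of their mRNAs were sequenced. Both groups carry the transgene, and no parental 22Rv1 cells with Dox were among the 6 samples, so the effect of the drug and that of ABHD5 cannot be told apart. The labels do not say whether the replicates were separate cultures, so the p-values measure only the spread between these samples, which may be technical.

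Desaturases place double bonds into fatty acyl-CoAs in the endoplasmic reticulum, drawing electrons from cytochrome b5 and its reductase. SCD and SCD5 make monounsaturated oleic and palmitoleic acids from saturated precursors. FADS2, ELOVL5 and FADS1 act in turn on the essential fatty acids linoleic and alpha-linolenic acid to yield arachidonic and eicosapentaenoic acids, ELOVL2 lengthens the products further on the way to docosahexaenoic acid, and FADS3 is known to desaturate sphingoid bases. Transcription of SCD, FADS1 and FADS2 is known to respond to SREBP1, a membrane-bound factor held back by sterols and by PUFAs, with NF-Y at CCAAT boxes as a common partner.

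The promoters of FADS1, SCD and ELOVL5 are shown because these are the members with the largest differences between the groups. Each run is the sense strand from 250 bases before to 50 bases after the start site given by RefSeq on GRCh38.p14. Capitals mark the CCAAT box, read as CCAAT or its reverse complement, and the cyclic AMP response element TGACGTCA. The coordinates are chr11:61816954-61817253 on the minus strand for FADS1, chr10:100346983-100347282 on the plus strand for SCD, and chr6:53348901-53349200 on the minus strand for ELOVL5.
FADS1: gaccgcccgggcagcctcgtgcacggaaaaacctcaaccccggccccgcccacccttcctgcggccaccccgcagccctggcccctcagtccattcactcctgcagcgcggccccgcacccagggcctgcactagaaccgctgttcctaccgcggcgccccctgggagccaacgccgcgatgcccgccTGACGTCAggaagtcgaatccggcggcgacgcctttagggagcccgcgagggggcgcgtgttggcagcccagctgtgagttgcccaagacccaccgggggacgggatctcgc
SCD: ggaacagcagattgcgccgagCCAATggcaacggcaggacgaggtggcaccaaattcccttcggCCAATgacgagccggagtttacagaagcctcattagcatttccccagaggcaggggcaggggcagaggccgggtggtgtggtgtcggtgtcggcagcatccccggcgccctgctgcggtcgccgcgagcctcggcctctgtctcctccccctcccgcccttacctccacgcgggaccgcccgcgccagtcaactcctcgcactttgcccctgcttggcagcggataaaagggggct
ELOVL5: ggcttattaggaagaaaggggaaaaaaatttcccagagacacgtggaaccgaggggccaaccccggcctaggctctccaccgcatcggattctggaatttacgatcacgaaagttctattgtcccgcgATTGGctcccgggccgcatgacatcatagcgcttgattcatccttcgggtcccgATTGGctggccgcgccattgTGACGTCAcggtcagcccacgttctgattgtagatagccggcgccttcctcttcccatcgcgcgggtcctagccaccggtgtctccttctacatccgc

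Both SCD and ELOVL5 held 2 CCAAT boxes in this window, in SCD on the sense strand 229 and 186 bases before the start and in ELOVL5 on the opposite strand 122 and 68 bases before it. FADS1 held none. A CCAAT box was present in 34.6% of 35116 RefSeq promoter windows of the same length. The sterol regulatory element in the spelling TCACNCCAC, searched on both strands, was in none of the members' windows and in 1.13% of all windows. Other spellings of this element were not searched, so whether the windows hold one is not known. FADS1 and ELOVL5 both held TGACGTCA, 62 and 48 bases before the start, a motif present in 1.85% of all windows and added to the search after the sequences had been read. FADS3 held CCAAT boxes 151 and 123 bases before its start and SCD5 held 1 at 135 bases, whereas ELOVL2 held none and, of the 2 start sites given for FADS2, only the window of the second held one. FADS1 and SCD also had 2 GC boxes each (GGGCGG, in 45% of windows), and ELOVL5 had an E-box (CACGTG, in 7.26%) 211 bases before the start. None of the 5 motifs contains another. These matches are letters in a window and do not show that a factor binds there.

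The libraries held 3394672 to 5988151 counts on genes without Dox and 3460471 to 7271771 with Dox. The share of reads outside any gene was 32.5% to 34.6% without Dox and 35.6% to 39.5% with Dox, highest in OE replicate 2, and the part of this difference in the results below was not tested. Levels are given as CPM, the counts of a gene per 1000000 counts on genes, scaled by TMM, and since each mRNA gives reads mainly from its 3′ end they were not divided by length and are not ranked between genes. ABHD5 stood at 63.5, 58.0 and 62.8 CPM without Dox and 126, 131 and 91.7 CPM with Dox, a log2 fold change of 0.91 ± 0.15 (standard error, SE; adjusted p = 1.978e-04), and whether reads of the transgene are counted at the gene depends on its 3′ end, which is not given in the sources used here. All 8 prostate luminal markers, among them KLK3, KLK2, FOXA1, HOXB13, KRT8 and KRT18, were detected in every library, with a summed level of 1598 to 1660 CPM without Dox and 1030 to 1139 CPM with Dox, and 4 of the 8, KLK2 and KRT18 among them, passed the test as lower. Of 12 markers of leukocytes, endothelium, fibroblasts, muscle and basal epithelium, 9 had at most 3 counts in every library, CD3E, PECAM1, VWF and KRT5 were at 0 in all, and their sum was 2.17 to 4.70 CPM without Dox and 5.01 to 9.59 CPM with Dox. COL1A1, the only one of these markers tested, was called higher (log2 fold change 1.22, adjusted p = 0.0313). The part of these marker shifts in the results was not tested, and in bulk RNA fewer cells with a transcript and less of it per cell cannot be told apart.

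FADS1, which makes the final double bond of arachidonic and eicosapentaenoic acids, was the member with the lowest ratio with Dox. Its counts were 1264, 1232 and 2060 without Dox and 385, 311 and 538 with Dox. In CPM the control libraries stood at 330, 382 and 360 and the OE libraries at 83.7, 86.5 and 70.7. The groups were far apart, and the 3 OE libraries lay within a narrow range of each other. The mean level went from 357 ± 26.0 to 80.3 ± 8.47 CPM (SD, n = 3 each), 4.46-fold lower, with a log2 fold change of -2.16 ± 0.13 (SE). Over 15 other fits the log2 fold change of FADS1 ran from -2.23 to -2.04. This value chose the set and has no test here.

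**Figure D1:**
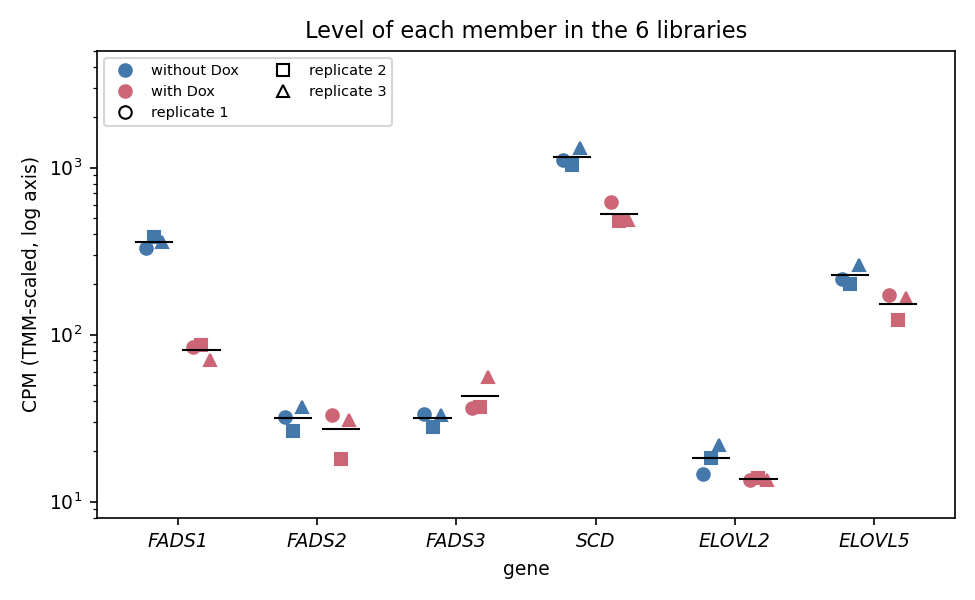
Level of 6 members in each of the 6 libraries (CPM, log axis), without Dox in blue and with Dox in red, with a marker shape for each replicate and a black line at each group mean. FADS1 lies at 330 to 382 CPM without Dox and at 70.7 to 86.5 CPM with Dox, and SCD at 1036 to 1310 and 477 to 621 CPM, while the FADS2 groups overlap. SCD5 is not drawn, having at most 4 counts in any library.

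FADS2, whose desaturase opens the pathway from linoleic acid, had groups that overlapped. It gave 123, 85 and 211 counts without Dox and 152, 65 and 233 with Dox, or 32.1, 26.4 and 36.8 CPM against 33.1, 18.1 and 30.6 CPM. OE replicate 2 was the lowest of the 6 libraries, and the other two OE libraries lay inside the range of the controls. The means were 31.8 ± 5.25 and 27.2 ± 8.03 CPM (SD, n = 3 each). Its log2 fold change was -0.21 ± 0.20 (SE), with a 95% confidence interval of -0.64 to 0.22 and an adjusted p of 0.485. This interval holds differences in either direction, and no test compared FADS2 with FADS1, whose fall chose the set. Without OE replicate 2 the log2 fold change of FADS2 was -0.017.

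FADS3, which acts on sphingoid bases, stood higher in each OE library than in each control library. The control libraries had 33.7, 27.9 and 32.8 CPM (129, 90 and 188 counts) and the OE libraries 36.3, 37.0 and 55.8 CPM (167, 133 and 425 counts). OE replicate 3 stood above the other two OE libraries, which were close to the highest control. Group means were 31.5 ± 3.12 and 43.1 ± 11.1 CPM (SD, n = 3 each). The log2 fold change was 0.46 ± 0.18 (SE; interval 0.082 to 0.85), which did not pass at an adjusted p of 0.0696. It was 0.21 (adjusted p = 0.409) without OE replicate 3 and 0.56 (adjusted p = 0.0327) without OE replicate 2, and it passed under upper-quartile scaling (0.52, adjusted p = 0.0435) and with library totals alone (0.59, adjusted p = 0.0248).

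SCD, the main stearoyl-CoA desaturase, was lower in each OE library than in each control library. It had 4245, 3340 and 7505 counts without Dox and 2855, 1715 and 3696 with Dox. On the CPM scale these were 1109, 1036 and 1310 against 621, 477 and 485. OE replicate 1 kept the highest level of its group, still well under the lowest control. The mean fell from 1152 ± 142 to 528 ± 80.6 CPM (SD, n = 3 each), 2.18-fold lower, with a log2 fold change of -1.13 ± 0.14 (SE; interval -1.43 to -0.83; adjusted p = 1.584e-05). The estimate ran from -1.26 to -1.01 over 15 other fits and passed the test in each.

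SCD5, the other stearoyl-CoA desaturase of the human genome, was barely counted. It had 0, 0 and 2 counts in the control libraries and 3, 1 and 4 in the OE libraries. The limit that a count of 0 allows, 3 counts, was 0.394 to 0.930 CPM in these libraries. SCD5 was therefore at or near that limit throughout, and no fold change is given.

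ELOVL5, the elongase that works between FADS2 and FADS1, was lower with Dox. Control libraries had 217, 201 and 263 CPM (829, 648 and 1504 counts) and OE libraries 172, 122 and 166 CPM (792, 437 and 1261 counts). The groups did not overlap, with OE replicate 2 the lowest and control replicate 3 the highest. The mean fell from 227 ± 32.0 to 153 ± 27.5 CPM (SD, n = 3 each), 1.48-fold lower, with a log2 fold change of -0.56 ± 0.15 (SE; interval -0.88 to -0.25; adjusted p = 0.00924). Without control replicate 3 the log2 fold change was -0.45 and the adjusted p 0.0516, which no longer passed.

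ELOVL2, which lengthens the longer PUFAs after FADS1, gave the fewest counts of the tested members. There were 56, 59 and 125 counts without Dox and 62, 50 and 102 with Dox, or 14.6, 18.3 and 21.8 CPM against 13.5, 13.9 and 13.4 CPM. The OE libraries were almost level with each other and sat just under the lowest control, while the controls were spread. Means were 18.2 ± 3.60 and 13.6 ± 0.277 CPM (SD, n = 3 each). The log2 fold change of -0.44 ± 0.21 (SE; interval -0.87 to -0.0032) did not pass at an adjusted p of 0.133. It was -0.28 without control replicate 3 and -0.59 without control replicate 1.

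**Figure D2:**
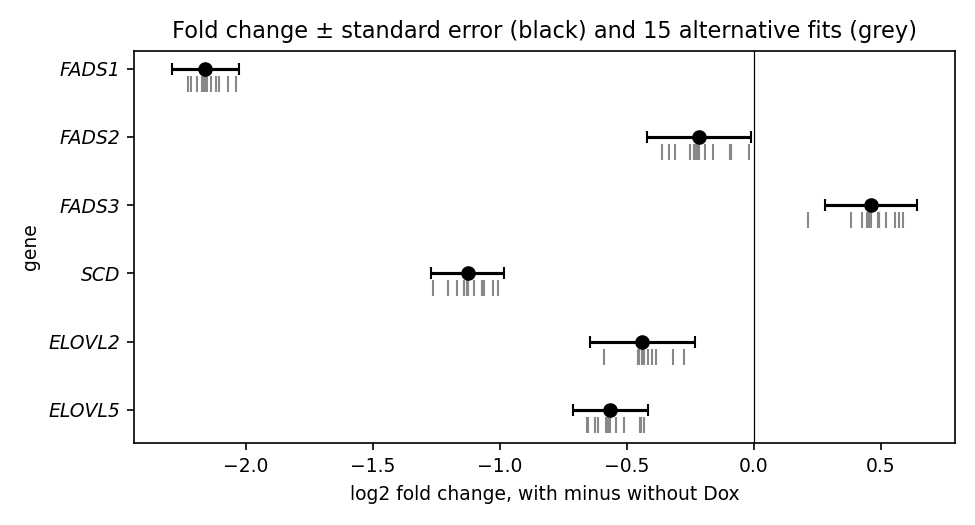
Log2 fold change of the 6 tested members, with minus without Dox, as a point with its standard error, with grey ticks for the 15 alternative fits. FADS1 (-2.16), SCD (-1.13), ELOVL5 (-0.56), ELOVL2 (-0.44) and FADS2 (-0.21) lie left of 0 in each fit. The FADS2 estimates reach close to 0 (-0.017), and FADS3 (0.46) is the member right of 0.

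Over all genes tested, 13.7% were called lower with Dox and 11.9% higher at an adjusted p under 0.05, together 25.5%. With FADS1 left out of the counts, as the gene that chose the set, 2 of the other 5 members tested were called lower (SCD and ELOVL5) and 0 higher by edgeR. DESeq2 and limma-voom each called 2 of these 5 lower and 0 higher. Over all genes, DESeq2 called 1483 lower and 1133 higher of 13727, and limma-voom 1681 lower and 1398 higher of 12233. Every OE library lay below every control library for 3 of these 5 members, against 20.5% of all genes tested, and above them for 1, against 19.0% of all genes. The median log2 fold change was -0.44 over these 5 and -0.50 with FADS1, beside 0.016 over all genes tested. Since the list was drawn up with earlier results known, nothing is read from these counts about the members as a group. With library totals alone in place of TMM, the median over all genes was 0.138, and 65.7% of all calls were higher rather than 46.4%. Under that scaling FADS1 was at -2.04, SCD at -1.01 and ELOVL5 at -0.44.

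Ratios of counts between members within a library do not depend on the scaling between libraries. FADS1 gave 10.3, 14.5 and 9.76 counts for each FADS2 count without Dox and 2.53, 4.78 and 2.31 with Dox. FADS1 counts per SCD count went from 0.298, 0.369 and 0.274 to 0.135, 0.181 and 0.146. Both ratios were lower in each OE library than in each control library. SCD gave 5.12, 5.15 and 4.99 counts per ELOVL5 count without Dox and 3.60, 3.92 and 2.93 with Dox. For FADS3 over FADS2 the control libraries had 1.05, 1.06 and 0.891 and the OE libraries 1.10, 2.05 and 1.82, so that OE replicate 1 was near the controls. ELOVL5 over ELOVL2 overlapped between the groups, at 14.8, 10.98 and 12.0 without Dox and 12.8, 8.74 and 12.4 with Dox. Because FADS1 enters as the gene that chose the set, no test was run on its ratios, and the others are given as values.

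**Figure D3:**
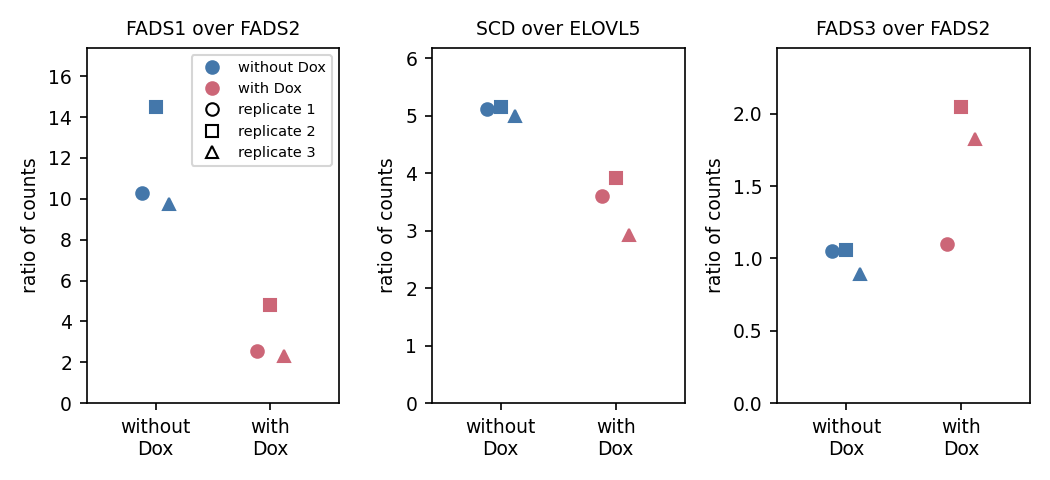
Ratio of counts between pairs of members in each library (linear axes from 0), without Dox in blue and with Dox in red. FADS1 over FADS2 lies at 9.76 to 14.5 without Dox and 2.31 to 4.78 with Dox, SCD over ELOVL5 at 4.99 to 5.15 and 2.93 to 3.92, and FADS3 over FADS2 at 0.891 to 1.06 and 1.10 to 2.05.

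Summed over the 7 members, the level was 1736, 1691 and 2024 CPM without Dox and 960, 755 and 822 CPM with Dox. SCD made up 61.2% to 64.7% of this sum without Dox and 59.1% to 64.7% with Dox, ranges that overlap. The share of FADS1 was 17.8% to 22.6% without Dox and 8.60% to 11.5% with Dox, and that of ELOVL5 was 11.9% to 13.0% and 16.1% to 20.1%. Thus ELOVL5 took a larger share of a smaller sum in each OE library, although its own level was lower there. FADS1, whose fall chose the set, is in this sum. The lower sum and the changed shares therefore rest in part on that choice and are given as a description.

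FADS1, FADS2 and FADS3 are neighbours on chromosome 11 (hg38, GENCODE 44). FADS1 spans chr11:61799627-61829318 on the minus strand, FADS2 chr11:61792980-61867354 on the plus strand and FADS3 chr11:61873519-61892051 on the minus strand. By these outermost annotated ends, the whole 29692-base span of FADS1 lies inside that of FADS2. The RefSeq start-site windows of FADS2 lie further in, at chr11:61815953-61816252 and chr11:61816154-61816453, close to that of FADS1. From these start sites the 2 genes are read in opposite directions, so the nesting need not hold for those transcripts. The annotated exons share 490 bases, 4.79% of the exonic bases of FADS1, with 0 of these in a last exon of FADS1 or of FADS2. Where counting ignores strand, reads in shared bases cannot be told apart, and the strand setting is not given in the sources used here. The 3 cluster members did not move together, with log2 fold changes of -2.16, -0.21 and 0.46. SCD lies at chr10:100347233-100364826 (plus strand), SCD5 at chr4:82629539-82798796 (minus strand), ELOVL2 at chr6:10980759-11044305 (minus strand) and ELOVL5 at chr6:53267398-53349179 (minus strand).

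Within 200 kb of the 3 cluster genes, 7 other genes were tested and 1 was called, beside 25.5% of all genes tested. FEN1, a flap endonuclease of DNA replication that shares 49 exonic bases with FADS2, fell by 0.81 ± 0.17 (SE) on the log2 scale (adjusted p = 0.00165). TMEM258 was at -0.23 (adjusted p = 0.186), MYRF at 0.44 (adjusted p = 0.180) and FTH1, the ferritin heavy chain, at 0.19 (adjusted p = 0.339). Around all the members, 30 neighbours were tested, 5 were called lower and 2 higher, beside 13.7% and 11.9% of all genes tested. Beside FEN1 these were NDUFB8, OLMALINC, LIN54 and NEDD9 among the lower and SEC31B and GCLC among the higher. With any 1 library left out, 2 to 4 neighbours were called. FEN1 and NDUFB8 (-0.45, adjusted p = 0.0107) passed without each library in turn, whereas OLMALINC and LIN54 lost the call in 4 of the 6 such fits, SEC31B and NEDD9 in 5 and GCLC in 6.

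**Figure D4:**
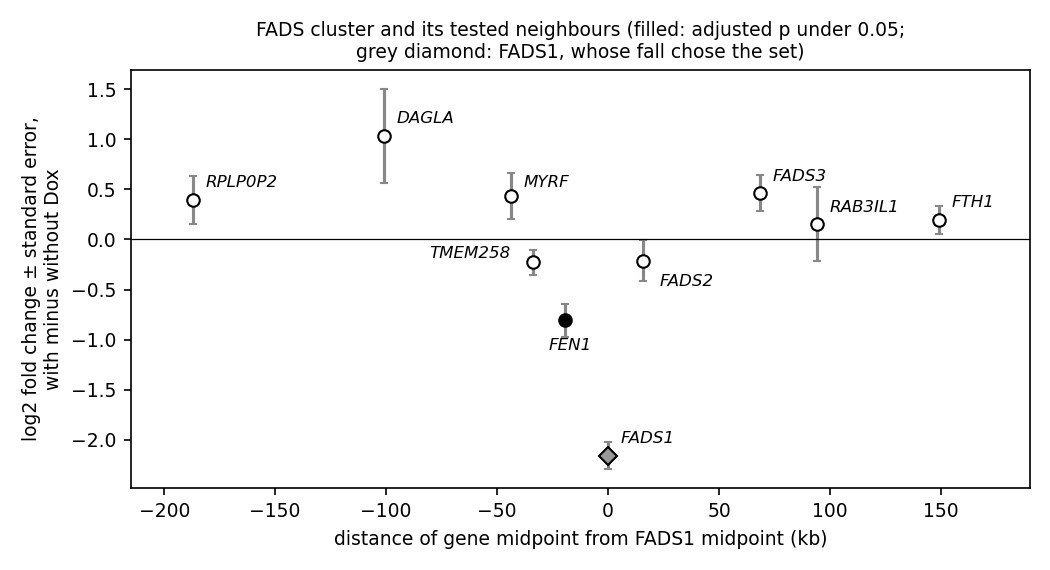
Log2 fold change with its standard error, with minus without Dox, of FADS1, FADS2, FADS3 and the tested genes within 200 kb, against the distance of each gene's midpoint from that of FADS1 (kb). FADS1 (grey diamond, -2.16) and FEN1 (filled, -0.81) are the lowest points, while FADS2 (-0.21) and FADS3 (0.46) lie nearer 0.

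The genes whose pattern over the 6 libraries was most like that of FADS1 were sought among 9419 other genes with at least 50 counts on average. The measure was the root mean square difference of centred log2 CPM. The 5 nearest were PRUNE2 (0.0788), SFN (0.116), FAM177B (0.126), TSPAN8 (0.168) and C1orf21 (0.171), with log2 fold changes of -2.26, -2.05, -2.45, -2.29 and -1.90. None of the other members was among them. SFN is the stratifin member of the 14-3-3 family. The points share their libraries, and likeness here is mostly the size of the step between the groups.

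Genes that work beside the members were taken in 8 lists by role, compiled with earlier results of these data known. Of their 84 genes, 63 were tested, with 10 called lower and 11 higher and a median log2 fold change of 0.049. Over all genes tested, 13.7% were called lower and 11.9% higher, with a median of 0.016. In the elongation cycle, 2 of 9 tested genes were called, both lower: ELOVL6, the elongase of saturated and monounsaturated acids, fell by 0.60 on the log2 scale (adjusted p = 0.00843) and HACD2, a dehydratase of the cycle, by 0.39 (adjusted p = 0.0341). ELOVL6 did not pass without OE replicate 1 (-0.55, adjusted p = 0.0529), nor HACD2 without control replicate 1 or 2 or OE replicate 1 or 2 (-0.40 to -0.35, adjusted p 0.0738 to 0.133). Of 2 other desaturases or hydroxylases tested, DEGS1, the dihydroceramide desaturase, rose by 0.63 (adjusted p = 0.00555).

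Of 8 genes in the electron supply of the desaturases, 2 were called lower, 2 were called higher and the rest were not called. CYB5A and CYB5B, the cytochromes b5 of the endoplasmic reticulum and of mitochondria, fell by 0.73 (adjusted p = 0.00462) and 0.51 (adjusted p = 0.0107) on the log2 scale. The reductases CYB5R1 and CYB5R2 rose by 0.56 (adjusted p = 0.00565) and 0.999 (adjusted p = 0.0277). CYB5B did not pass without control replicate 1 (-0.44, adjusted p = 0.0674), nor CYB5R2 without control replicate 2 or 3 or OE replicate 1 or 3 (0.77 to 1.03, adjusted p 0.0598 to 0.136).

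Among 13 genes that encode SREBPs, control them or act beside them, 2 were called lower and 3 higher, with a median of 0.21. INSIG1, which retains SREBPs in the endoplasmic reticulum and is itself a target of them, fell by 1.153 on the log2 scale (adjusted p = 1.157e-05). SREBF2 fell by 0.53 (adjusted p = 0.00344), whereas SREBF1, which encodes SREBP1, was at 0.21 (adjusted p = 0.380). Among those called higher, MLXIPL, which encodes ChREBP, rose by 0.68 (adjusted p = 0.0332) and NR1H2, the beta form of LXR, by 0.53 (adjusted p = 0.0417). MLXIPL did not pass without any of control replicates 1 to 3 or OE replicates 2 and 3 (0.54 to 0.75, adjusted p 0.0584 to 0.101), nor NR1H2 without control replicate 2 or 3 or OE replicate 1 or 3 (0.36 to 0.54, adjusted p 0.0838 to 0.187). Of 8 tested genes in the list of SREBP1 targets outside desaturation, 1 was called. ACACA, the acetyl-CoA carboxylase of fatty acid synthesis, fell by 0.59 (adjusted p = 0.00309), while FASN was at -0.29 (adjusted p = 0.180). That list does not hold every SREBP target, and INSIG1 and ELOVL6, both called lower, were counted in other lists.

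Among the enzymes that activate or esterify fatty acids, 1 of 9 was called lower and 2 higher. ACSL3, an acyl-CoA synthetase of lipid droplets and the endoplasmic reticulum, fell by 1.24 on the log2 scale (adjusted p = 1.892e-06). ACSL6 rose by 1.13 (adjusted p = 0.0152) and LPCAT1, a lysophosphatidylcholine acyltransferase, by 0.64 (adjusted p = 0.0203), and neither passed without control replicate 1 or 2 or OE replicate 1 (ACSL6 0.80 to 1.12, adjusted p 0.05005 to 0.0552, and LPCAT1 0.53 to 0.66, adjusted p 0.0579 to 0.0844). Of 9 tested genes that release or oxygenate PUFAs or convert the oxygenated products, 2 were lower and 1 higher. The 3 called genes act on oxygenated products, and no tested gene that itself releases or oxygenates PUFAs was called. PTGES and PTGES3, prostaglandin E synthases, fell by 1.27 (adjusted p = 1.364e-05) and 0.45 (adjusted p = 0.00868), and LTA4H, the leukotriene A4 hydrolase, rose by 1.28 (adjusted p = 9.025e-06). In peroxisomal chain shortening, which completes docosahexaenoic acid after ELOVL2 and FADS2, 2 of 5 genes were called, both higher, among them HSD17B4 by 0.38 (adjusted p = 0.0333), which did not pass without any of control replicates 1 to 3 or OE replicates 2 and 3 (0.31 to 0.38, adjusted p 0.0533 to 0.107).

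**Figure D5:**
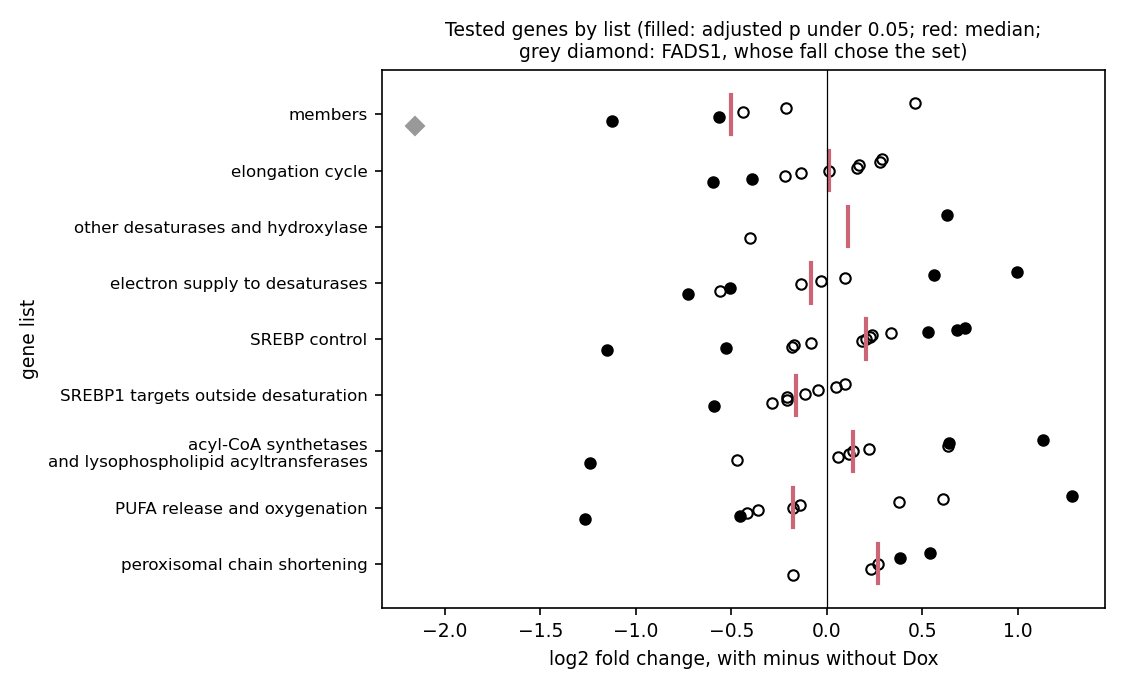
Log2 fold change, with minus without Dox, of the tested members and of the tested genes in the 8 lists by role, one point a gene, filled where the adjusted p is under 0.05, with a red line at each list's median. FADS1, whose fall chose the set, is the grey diamond at -2.16. The members' median, drawn with FADS1 included, is -0.50, and without FADS1 it is -0.44. The medians of the 8 lists lie between -0.18 and 0.27.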

How the data were processed

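RNA of 22Rv1 cells was profiled as 3′ mRNA (QuantSeq) libraries, 3 without and 3 with Dox for 48 h. The authors deposited raw read counts per gene for the 6 libraries, and the submitters' processing notes name CASAVA 1.8.2, FastQC, STAR, HTSeq, edgeR and hg38. The labels name the forward kit and the study's methods the reverse kit, and the strand setting of the counting is not given in the sources used here. The authors also deposited 1 table of normalized values (signal) per library, used only as an alternative (limma on log2 of the value plus 1), where 27 of 27475 rows with differing names were left out. Columns of other samples numbered 0.

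Rows that name no gene (no feature 32.5% to 39.5%, ambiguous 3.05% to 3.37%) stayed out of library sizes and tests. Counts were scaled by TMM, filtered with filterByExpr and tested by edgeR 4.0.16 (quasi-likelihood, 2-sided, R 4.3.3), with Benjamini-Hochberg adjustment over the 12233 genes tested. limma 3.58.1 and DESeq2 1.42.0 served as alternatives. Replicates differed by more than sampling noise (chi-square per degree of freedom 4.07 to 11.3), and the limit of 3 counts behind a count of 0 covers counting error only.

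The members and lists were chosen with earlier results of these data known. Named were all members, ABHD5, up to 3 called genes per direction in each list, SREBF1, INSIG1, FASN, FEN1, TMEM258, MYRF and FTH1, called neighbours, and the 5 genes most like FADS1 (pseudocount 0.5). Some genes under this rule are not reported here. Positions are from GENCODE 44, which held 24243 of the 27470 symbols under their current name, and promoters from RefSeq.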

Additional observations from a re-analysis of the deposited data

How the results depend on the processing

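No value of a member or of another named gene changed sign under any of 15 alternatives, 6 of which left out 1 library each. SCD and ELOVL5 passed in each, except ELOVL5 without control replicate 3 (-0.45), FADS1 ran from -2.23 to -2.04, and leaving out 1 library gave -0.66 to -0.43 for ELOVL5. FADS3 ran from 0.21 to 0.57 when 1 library was left out, and it passed, as the 1 member called higher, under upper-quartile scaling (0.52), library totals alone (0.59) and the replicate block (0.45). Members called higher numbered 0 to 1 when 1 library was left out.

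Replicate numbers are shared by the groups. For same-numbered libraries, deviations from the group means had correlations of -0.0096, 0.23 and 0.086 for replicates 1, 2 and 3. In both groups replicate 2 had the fewest counts on genes and replicate 3 the most. The labels do not say whether same-numbered libraries share a batch or a pairing, and this was not tested. A fit with the replicate number as a block called 3537 genes against 3125. Of the members other than FADS1, that fit called SCD and ELOVL5 lower and FADS3 higher. It called 5 against 3 acyl-CoA synthetases and lysophospholipid acyltransferases.

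Other counts moved as follows. Elongation cycle calls went from 2 to 1 under upper-quartile scaling, peroxisomal calls from 2 to 1 with no filter, SREBP control calls from 5 to 3 on the deposited normalized values and also by DESeq2, and neighbours called from 7 to 4 with library totals alone and 3 with DESeq2. The cause was not tested. Leaving out 1 library gave 1 to 4 calls for the acyl-CoA synthetases and lysophospholipid acyltransferases, 0 to 2 for the elongation cycle, 1 to 2 for peroxisomal chain shortening, 3 to 4 for SREBP control, 1 to 2 for SREBP1 targets and 2 to 4 for neighbours. Genes called over the whole table ranged from 2181 to 3112 with 1 library left out. Of 567 values of the 38 other named genes, 491 stayed on the same side of the threshold with the same sign, and 76 lost the call. With 3 libraries a group and SCD5 at no more than 4 counts, depth limits what can be said of that gene.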
